A study of Homo sapiens with 66 samples.

Results

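The eukaryotic translation initiation factor genes form a group of 47 among the 13331 genes counted in this study. They were chosen by name: the Ensembl identifier of the row belongs, in GENCODE release 29, to an autosomal protein-coding gene whose symbol starts with EIF and a digit from 1 to 6. No measured value entered this rule, though it was set with earlier results of these data known. EIF1AX and EIF2S3 have rows but lie on the X chromosome, so they are not members and are missing from the groups below. GENCODE lists 53 such genes, and EIF3C, EIF3CL, EIF4E1B, EIF4E3, EIF5AL1 and EIF2S3B were not analysed here. All 47 members passed the filter on low counts on both scales used below.

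Initiation factors bring the small ribosomal subunit, the initiator tRNA and the mRNA together and find the start codon. eIF2 carries the initiator tRNA and is recharged by eIF2B, and kinases that phosphorylate its alpha subunit slow this step under stress. eIF3 is the large scaffold on the small subunit, the eIF4 proteins bind the cap and unwind the leader, the 4E-binding proteins hold the cap-binding protein back, and eIF5B joins the large subunit. Growing leukaemia cells make ribosomes and proteins at a high rate, and many genes of the translation machinery are known targets of growth-driving transcription factors such as MYC.

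RNA came from KBM7, a near-haploid human leukaemia line, and was measured by Quant-seq, which reads the 3′ end of polyadenylated transcripts, so a count follows the number of transcripts and not their length. The 66 libraries form 22 groups of 3, lettered A, B and C. The dTAG tag was on CDK9 in 1 of the 9 engineered lines and on a Mediator subunit in the other 8, namely MED14, MED10, MED28, MED12, MED6, MED31, MED26 and MED1. Wells of these lines were kept for 6 h in DMSO or in 500 nM dTAG7, a compound that sends tagged proteins to degradation. Wild-type cells, which carry no tag, received DMSO, 500 nM dTAG7, 250 nM THAL-SNS-032, a degrader of CDK9, or 100 nM dBET6, a degrader of BET bromodomain proteins, also for 6 h. Mediator links transcription factors to RNA polymerase II, and CDK9 releases paused polymerase. Whether a line is 1 clone is not given in the sources used here. Degradation acts on the protein, so the transcript of the targeted gene does not check the labels. The libraries were wells treated in triplicate, and p-values measure the spread between wells, which may be technical.

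Libraries held 439261 to 4337368 gene counts and 10950 to 72684 counts of spike-in RNA, which was added in equal amounts to the lysates. All 8 blood progenitor and erythroid-megakaryocytic markers listed were present, with a summed level of 804.5 to 1538 CPM (counts scaled to a common library size) over the DMSO libraries. The summed levels were 3.84 to 42.6 CPM for 3 of 4 T cell markers and 5.39 to 23.6 CPM for 4 of 4 B cell markers, and 0 of 6 stromal and epithelial markers had a row. Library B of the DMSO-treated MED12 line stood apart from A and C for several members. Its log2 ratio of gene to spike-in counts was 6.71 against 7.03 and 6.97 in A and C. The same ratio was 6.52 in dTAG7 library A of the MED6 line against 6.82 and 6.82 in B and C. TMM calls of named members that rest on either library are given with and without it.

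Each treatment was compared with the DMSO wells of its own line by edgeR's quasi-likelihood test over all genes, and a member was called at a Benjamini-Hochberg adjusted p under 0.05. On the spike-in scale counts were divided by the spike-in total, so that a level stands for transcripts per well, and fewer cells cannot be told apart from less RNA per cell. On the TMM scale (trimmed mean of M-values) counts were set against the bulk of the other transcripts of the same library, so that a value says whether a member lost more or less than most transcripts. Fold changes are log2 values ± SE with 3 libraries in each arm. The 3 treatments of wild-type cells share 1 DMSO group, so their results are not independent of each other.

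On the spike-in scale no member was called higher in any of the 12 comparisons, and the number called lower ranged from none to all 47. With dBET6 all 47 were lower, with a median log2 change of -3.53 against -3.67 over all genes (97.1% of all tested genes were lower). With THAL-SNS-032 all 47 were lower, with a median of -2.74 against -2.86 (96.2% of all genes). The CDK9 line had 46 lower, with a median of -2.59 against -2.93 (95.3%). The member not called there was EIF3L, an eIF3 subunit, at -0.53 ± 0.76. Its 3′ end is overlapped on the same strand by another annotated gene.

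The MED14 line had 38 lower members, with a median of -0.74 against -0.69 over all genes (62.7% of all genes were lower). The count was 19 in the MED10 line (18.9%), 19 in the MED6 line (18.2%), 6 in the MED28 line (4.14%), 4 in the MED12 line (3.32%), 3 in the MED26 line (2.99%) and 2 in the MED31 line (2.65%). Medians were -0.34 in the MED10 line against -0.19 over all genes, -0.30 in the MED6 line against -0.27, and -0.15 in the MED28 line against -0.04. With dTAG7 on wild-type cells and on the MED1 line edgeR called 0 members, and 0 had an unadjusted p under 0.05 in either (0.0% of all genes were called in each). The lower members made up 80.9% of the 47 in the MED14 line, 40.4% in the MED10 line, 40.4% in the MED6 line, 12.8% in the MED28 line, 8.51% in the MED12 line, 6.38% in the MED26 line and 4.26% in the MED31 line. Members were also measured more deeply than most genes, with a median DMSO level of 120.0 CPM against 25.9 CPM over all tested genes, and the part of this in the shares was not tested. Single libraries moved the smaller counts: the MED6 count was 12 without DMSO library A or C and 9 without dTAG7 library A, the MED12 count 1 without dTAG7 library A or C, the MED31 count 0 without DMSO library A and 1 without dTAG7 library A, and the MED26 count 0 or 1 without any 1 of its 6 libraries. The MED28 count was 2 without DMSO library A or dTAG7 library B or C and 3 without DMSO library C.

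**Figure D1:**
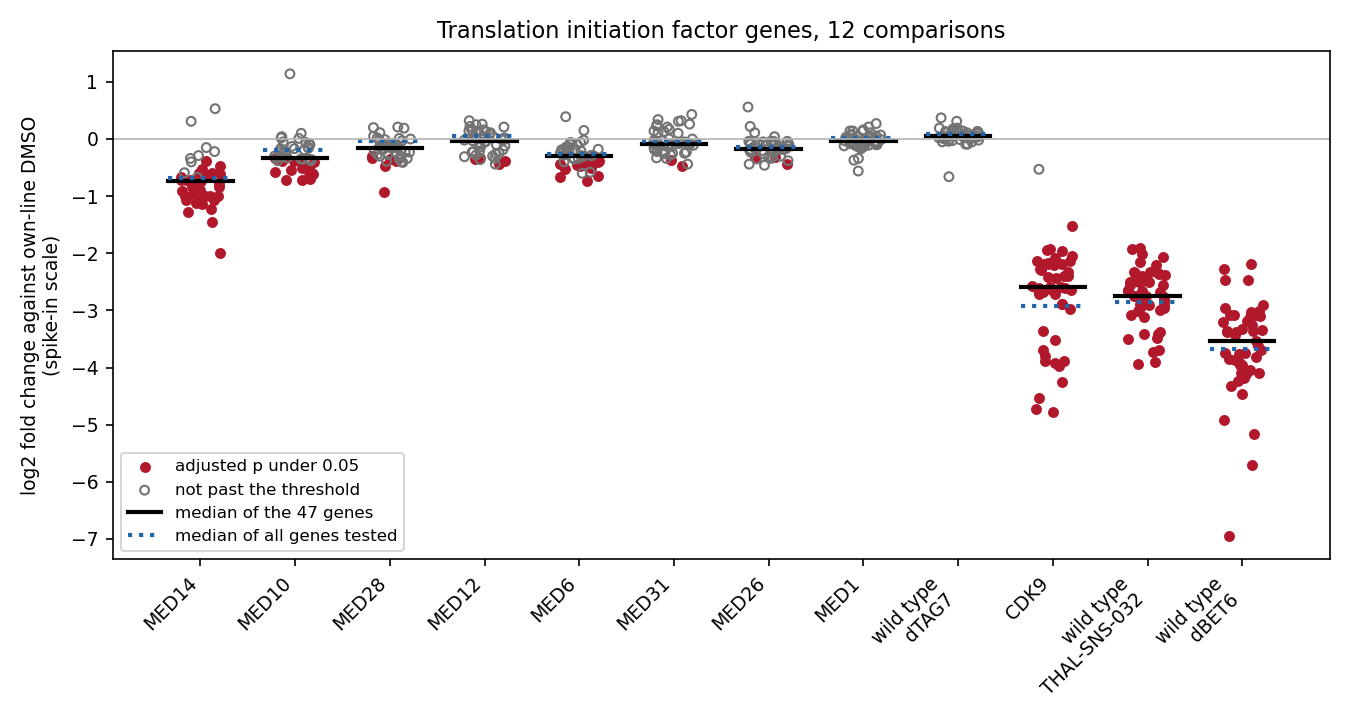
Log2 fold change against own-line DMSO of the 47 initiation factor genes on the spike-in scale, 1 point per gene and 1 column per comparison, with bars for the median of the members and of all tested genes. All members lie below 0 with dBET6, with THAL-SNS-032 and in the CDK9 line, where the member medians are -3.53, -2.74 and -2.59, and the MED14 line follows at -0.74.

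On the TMM scale members went both ways. The MED14 line had 16 lower and 3 higher (16.5% and 13.0% of all genes), and the count called was 12 without dTAG7 library C. In the MED10 line 10 were lower and 1 higher (9.87% and 7.94%), with 7 called in all without DMSO library A or dTAG7 library A or C. The higher member was EIF4EBP3, with a mean under 5 CPM over all libraries. Its call was lost without any 1 of the 6 libraries of the MED10 line (adjusted p from 0.0661 to 0.183). It was also lost with a block for the replicate letter and with DESeq2. In the MED12 line 8 were lower and 0 higher (5.61% and 2.96%), with 3 called without DMSO library B and 5 without dTAG7 library A, and with 1 called where the 6 libraries of the line were fitted alone. In the MED28 line 5 were lower and 0 higher (4.33% and 2.0%), with 3 called without DMSO library C or dTAG7 library B or C. In the MED6 line 4 were lower and 0 higher (3.55% and 2.69%), with 1 or 2 called without any 1 of DMSO libraries A, B and C or dTAG7 library A, and 0 where the 6 libraries were fitted alone. In the MED31 line 2 were lower and 0 higher (3.04% and 1.41%), with 0 called without DMSO library B or dTAG7 library B or C and 1 without DMSO library C. In the MED26 line edgeR called 0, with 5 members at an unadjusted p under 0.05 (1.37% of all genes were lower and 0.94% higher). In the MED1 line it called 0, with 1 at an unadjusted p under 0.05, and with dTAG7 in wild-type cells 0, with 0 (0.00771% and 0.0% of all genes called in either direction).

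**Figure D2:**
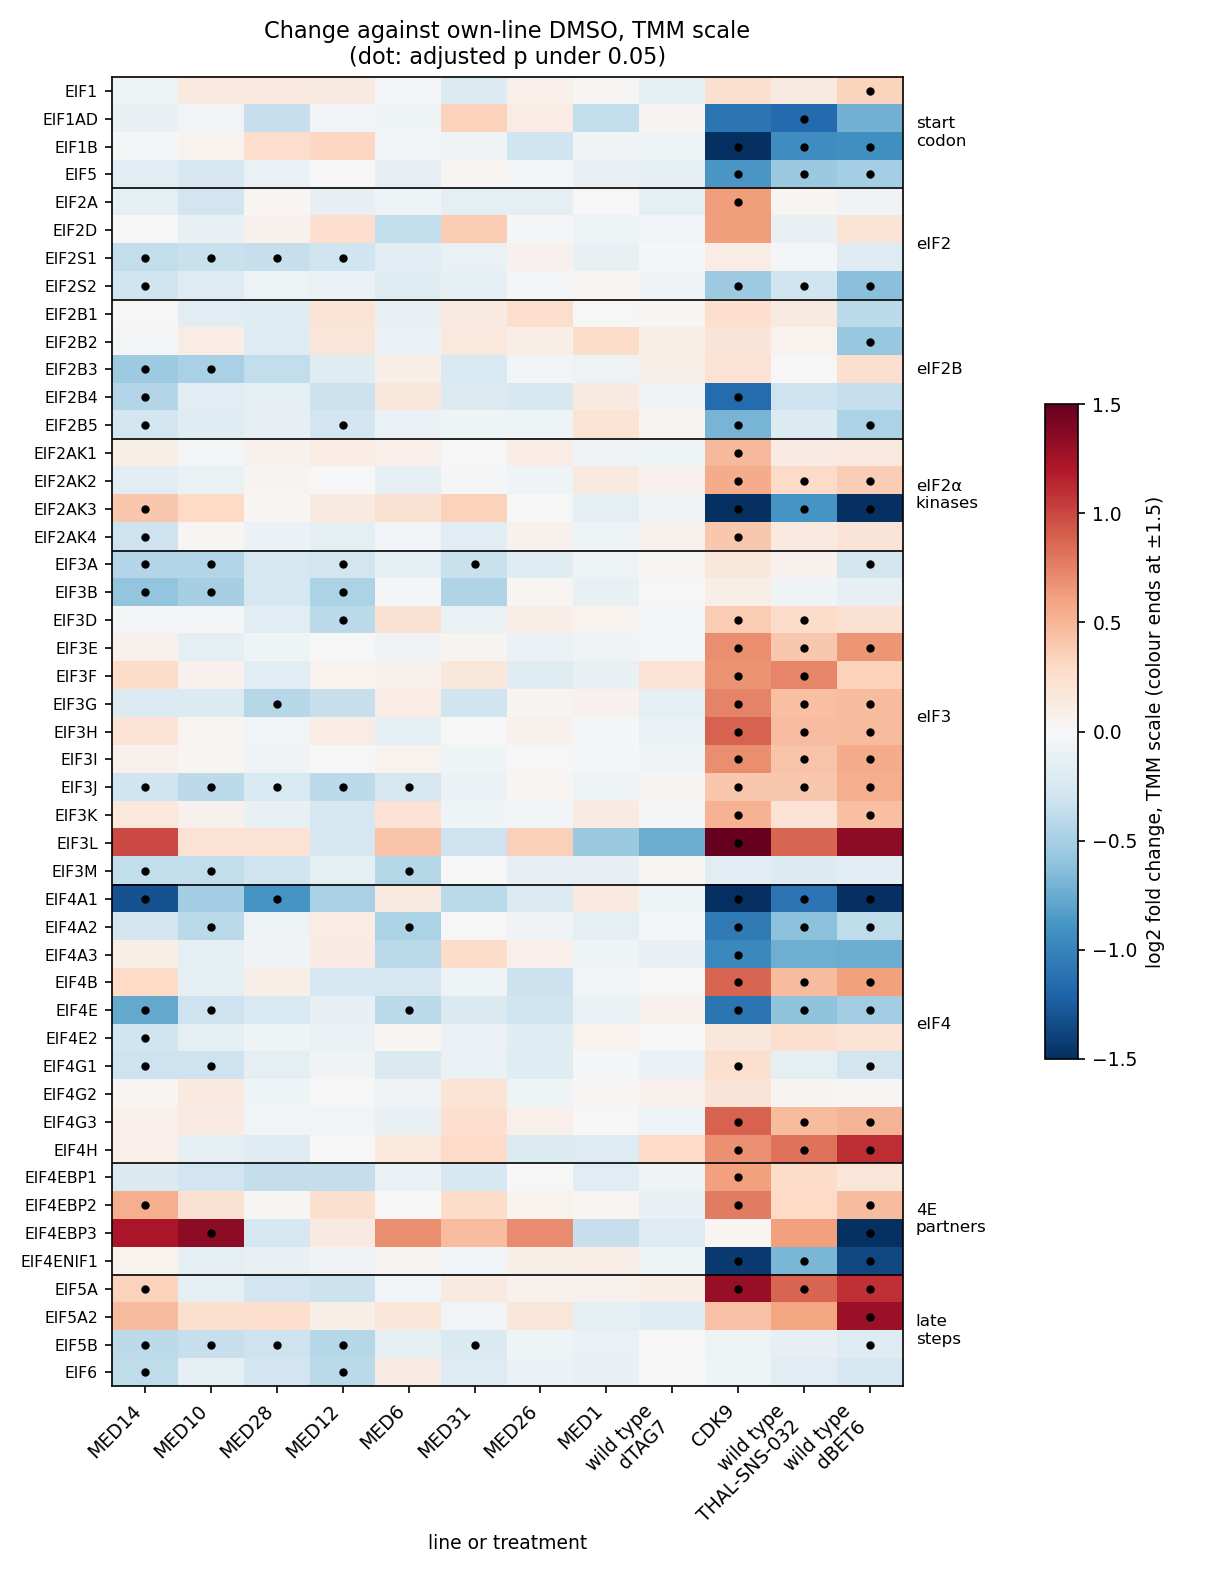
Log2 fold change on the TMM scale for the 47 members (rows, grouped by role) in the 12 comparisons (columns), with a dot on each called value and colour, which ends at 1.5 in either direction, for the size and direction of the change. The MED14 column holds 16 called falls and 3 called rises, the MED1, MED26 and wild-type dTAG7 columns hold no dot, and the CDK9 line, THAL-SNS-032 and dBET6 columns show called changes in both directions, all of which are falls on the spike-in scale apart from EIF3L in the CDK9 line, which was not called there.

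The ribosome assembly pattern is a fall on the TMM scale in each of the MED10, MED12, MED14 and MED28 lines. The 4 lines were chosen from earlier values of that list, so its own share only restates the choice. The list's genes were also lower with dBET6 (51 of 79), in the CDK9 line (44), with THAL-SNS-032 (42) and in the MED31 line (36). The shares of all genes lower were 23.6%, 27.0%, 16.1% and 3.04% in the same order. Higher were 8, 12, 7 and 0 of the list, against 17.6%, 20.6%, 13.5% and 1.41% of all genes. The pattern was present in 50 of the 79 (63.3%), in 320 of 12973 genes in all (2.47%) and in 3 of 47 initiation factor genes (6.38%). These 3 were EIF5B, EIF3J and EIF2S1. EIF3A and EIF3B, eIF3 core subunits, were lower in 3 of the 4 lines, 7 members in 2 lines, 7 in 1 line and 28 in none. Of all 12973 genes, 299 were lower in 3 lines, 652 in 2, 1226 in 1 and 10476 in none. The medians of the initiation factor genes were -0.14, -0.05, -0.06 and -0.11 in the MED10, MED12, MED14 and MED28 lines, and those of the ribosome assembly list were -0.70, -0.62, -0.88 and -0.44. With the libraries of each comparison fitted alone EIF5B kept the pattern and EIF3J and EIF2S1 did not. On the spike-in scale 2 members were lower in all 4 lines, EIF5B and EIF6. EIF5B had it in 24 of 24 fits that left out 1 library, EIF2S1 in 17 and EIF3J in 13. Without MED28 DMSO library C or MED28 dTAG7 library B EIF5B was the 1 member left, and EIF3A joined in 3 of the 24 fits.

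EIF5B encodes the GTPase that joins the large subunit to the small one (chr2:99337353-99401326, plus strand, hg38). In the MED14 line it read 1211, 1245 and 1279 CPM with DMSO and 932, 956 and 958 CPM with dTAG7. In the MED12 line it read 1151, 1192 and 1126 CPM with DMSO and 829.7, 897 and 844 CPM with dTAG7. The dTAG7 libraries lie below all DMSO libraries of the same line in both. The log2 changes were -0.39 ± 0.068 (SE; adjusted p = 3.52e-06) in the MED14 line and -0.43 ± 0.068 (SE; adjusted p = 2.27e-06) in the MED12 line. EIF5B read 1253, 1196 and 1219 CPM with DMSO and 968, 916 and 1012 CPM with dTAG7 in the MED10 line, a change of -0.34 ± 0.068 (SE; adjusted p = 9.97e-05). In the MED28 line it read 1224, 1288 and 1262 CPM with DMSO and 1004, 1014 and 1034 CPM with dTAG7, a change of -0.31 ± 0.068 (SE; adjusted p = 0.00119). It was also lower in the MED31 line, at -0.22 ± 0.068 (SE; adjusted p = 0.0401), a call that was lost without DMSO libraries B or C or treated libraries B or C (adjusted p from 0.165 to 0.248). With dTAG7 in wild-type cells it stood at -0.01 ± 0.068 (SE; adjusted p = 1.0).

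EIF3J (chr15:44537057-44563029, plus strand) encodes a loosely bound eIF3 subunit that sits near the decoding site. In the MED12 line it read 321, 288 and 321 CPM with DMSO and 229, 247 and 234 CPM with dTAG7, a change of -0.39 ± 0.076 (SE; adjusted p = 0.000163). In the MED10 line it read 386, 366 and 375 CPM with DMSO and 302, 282 and 277 CPM with dTAG7, a change of -0.39 ± 0.076 (SE; adjusted p = 7.39e-05). The arms do not overlap in either line. In the MED14 line it read 370.0, 374 and 384 CPM with DMSO and 323, 269 and 317 CPM with dTAG7, a change of -0.30 ± 0.076 (SE; adjusted p = 0.00134), and in the MED28 line 340.4, 369.6 and 366 CPM with DMSO and 316, 292 and 308 CPM with dTAG7, a change of -0.23 ± 0.075 (SE; adjusted p = 0.0461). The MED28 call was lost without DMSO libraries B or C or treated libraries A, B or C (adjusted p from 0.0698 to 0.197). In the MED6 line EIF3J was also lower, at -0.25 ± 0.076 (SE; adjusted p = 0.0278), a call that was lost without DMSO libraries A, B or C or treated library A (adjusted p from 0.0634 to 0.196) and with the 6 libraries fitted alone. EIF3J was higher on the TMM scale in the CDK9 line, with THAL-SNS-032 and with dBET6, at 0.41 ± 0.082, 0.40 ± 0.079 and 0.55 ± 0.081, and lower on the spike-in scale in all of them, at -2.40, -2.38 and -3.02.

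EIF2S1 (chr14:67359997-67386516, plus strand) encodes the alpha subunit of eIF2, the site of stress phosphorylation. In the MED28 line it read 139, 119 and 136 CPM with DMSO and 105, 102 and 106 CPM with dTAG7, a change of -0.34 ± 0.091 (SE; adjusted p = 0.0103). The MED14 line gave 141, 139 and 137 CPM with DMSO and 109, 93.5 and 118 CPM with dTAG7, a change of -0.37 ± 0.095 (SE; adjusted p = 0.00159). All dTAG7 libraries lie below all DMSO libraries in both lines. The changes in the MED10 and MED12 lines were -0.33 ± 0.093 (SE; adjusted p = 0.00729) and -0.30 ± 0.092 (SE; adjusted p = 0.0263). The MED10 call was lost without treated library A (adjusted p = 0.102), the MED12 call was lost without DMSO library B or treated libraries A or C (adjusted p from 0.0524 to 0.0708, with a value of -0.31 without DMSO library B) and the MED28 call was lost without DMSO libraries A or C or treated library B (adjusted p from 0.0564 to 0.0786).

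**Figure D3:**
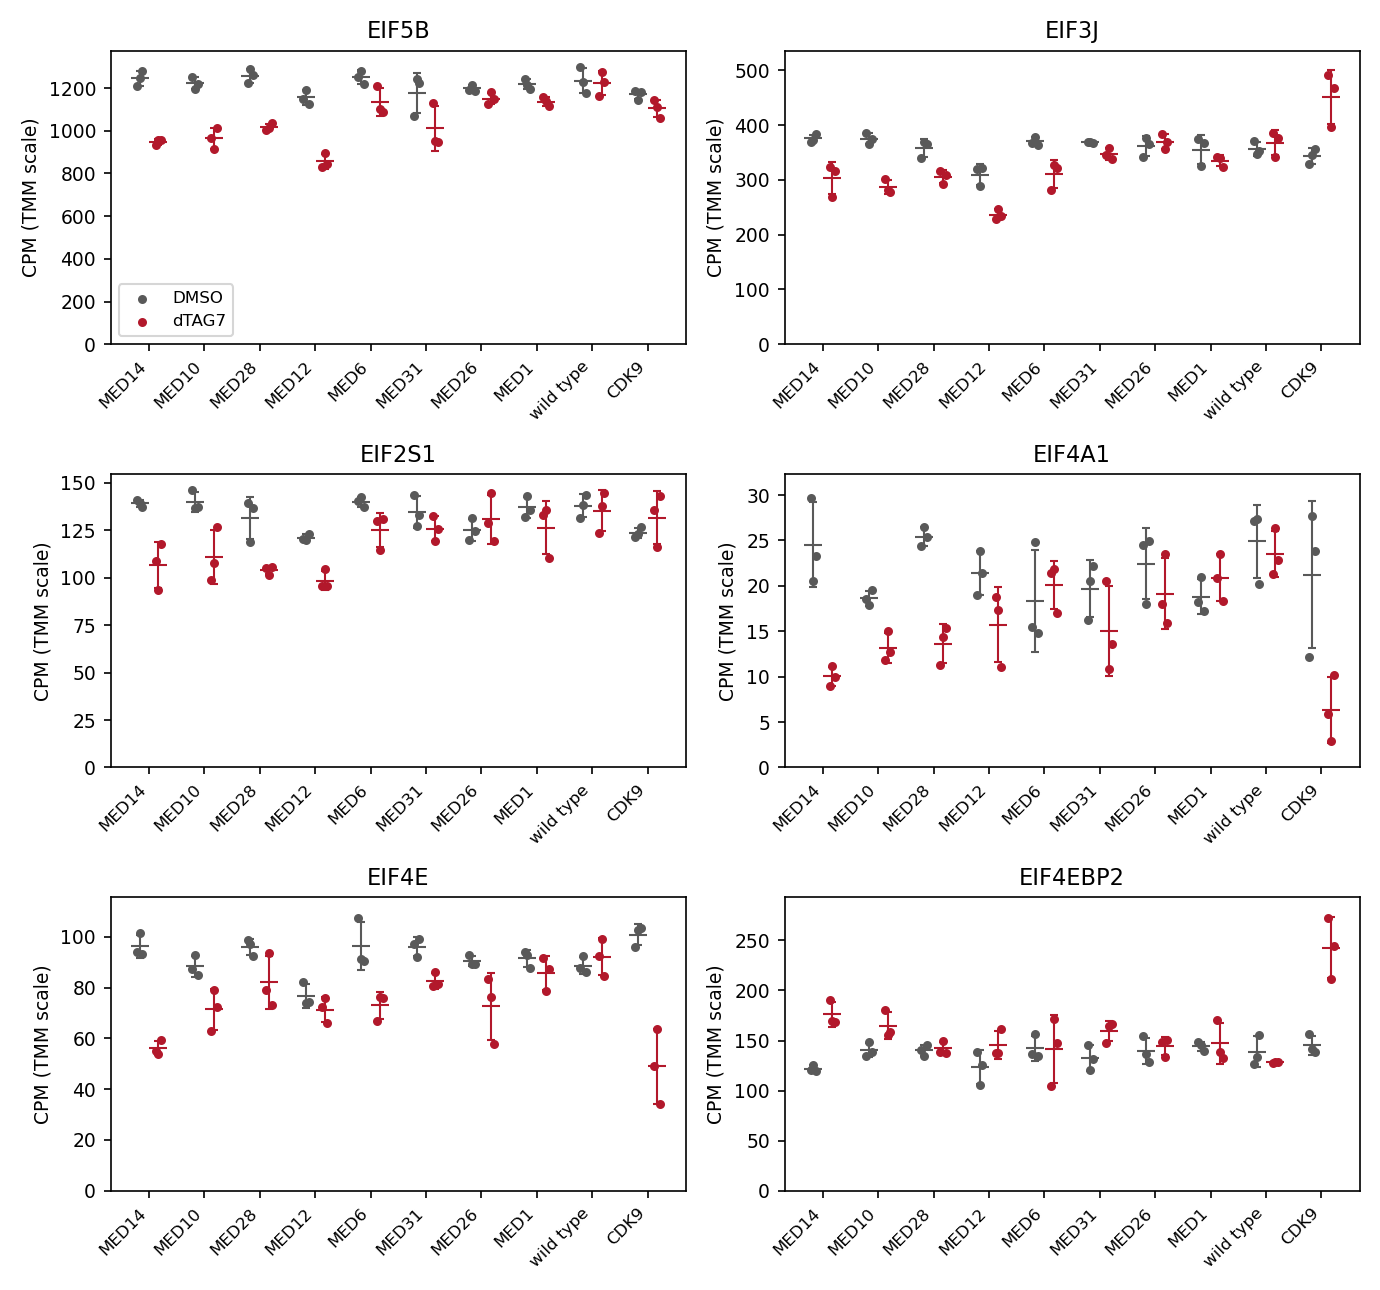
TMM-scaled CPM of EIF5B, EIF3J, EIF2S1, EIF4A1, EIF4E and EIF4EBP2 in the DMSO and dTAG7 wells of the 9 engineered lines and wild-type cells, 1 point per library with the mean and SD of 3 libraries. EIF5B lies between 1211 and 1279 CPM with DMSO and between 932 and 958 CPM with dTAG7 in the MED14 line.

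Over the 12 comparisons the TMM log2 changes of EIF5B followed the median of the ribosome assembly list with Pearson's r = 0.81, those of EIF2S1 with 0.65 and those of EIF3J with 0.17. Over the 8 Mediator lines r for EIF3J was 0.78. The median r was 0.11 over the members, 0.75 over the list's own genes and 0.02 over all genes. These values describe 12 points of which 3 share a DMSO group. The pattern members were chosen by their falls in 4 of these comparisons, so a positive r is partly built in. Over the 8 Mediator lines EIF3B and EIF3A, which lack the full pattern, had r of 0.88 and 0.87, against 0.92 for EIF5B and 0.84 for EIF2S1. The genes whose 12 changes were most like those of EIF5B, among 6539 genes with a mean of at least 20 CPM, were YARS (r = 0.964), POLE3 (0.961), PYCR1 (0.957), DUSP9 (0.957) and ATAD3A (0.954). YARS charges tyrosyl-tRNA, POLE3 is a DNA polymerase epsilon subunit, PYCR1 makes proline, DUSP9 is a dual-specificity phosphatase and ATAD3A a mitochondrial ATPase.

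Promoter sequence of the pattern members is shown because these 3 genes were lower in the same 4 lines and because E-boxes, the letters CACGTG, are the sites that MYC family proteins are known to bind. The 150 bases before the start are from RefSeq GRCh38.p14, written 5′ to 3′ on the gene's strand. The starts are those of RefSeq, while the gene spans printed above are those of GENCODE 29. The EIF2S1 stretch therefore lies within its GENCODE span, and the stretches of EIF5B and EIF3J run past the GENCODE start. Capitals mark a GC box (GGGCGG, or CCGCCC on the other strand), and the stretches of EIF5B and EIF2S1 hold no searched motif.
EIF5B, chr2:99337239-99337388, plus strand: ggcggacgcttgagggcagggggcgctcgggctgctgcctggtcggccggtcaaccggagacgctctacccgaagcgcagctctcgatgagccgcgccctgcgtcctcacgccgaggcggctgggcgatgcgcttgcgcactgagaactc
EIF3J, chr15:44536997-44537146, plus strand: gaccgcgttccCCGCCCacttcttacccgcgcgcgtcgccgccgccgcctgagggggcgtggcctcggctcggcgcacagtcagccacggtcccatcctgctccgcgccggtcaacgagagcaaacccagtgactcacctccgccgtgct
EIF2S1, chr14:67360178-67360327, plus strand: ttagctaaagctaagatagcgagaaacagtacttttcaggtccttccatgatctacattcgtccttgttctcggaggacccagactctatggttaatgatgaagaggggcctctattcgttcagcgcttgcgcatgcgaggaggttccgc
The window searched ran from 250 bases before to 50 after the start, 300 bases, on both strands, and 39 of the 47 members matched the RefSeq table. An E-box was found in 12 of 39 members (30.8%), in 42.6% of the ribosome assembly list, in 12.9% of the genes of the count table and in 8.77% of all promoters in the table. Of the 3 pattern members 0 held an E-box in this window. The ETS letters CCGGAAG were found in 12 of 39 (30.8%, against 23.1% of the count table's genes), the GC box in 29 (74.4% against 77.7%), CCAAT in 19 (48.7% against 43.4%) and TATAAA in 2 (5.13% against 8.0%), and the NRF1 motif in 0 (against 2.79%). E-box members included EIF4E, EIF4G1, EIF4A3, EIF4B, EIF4H and EIF3F. Matches of letters are a description of these windows.

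The 4 genes grouped as start codon factors were EIF1, EIF1B, EIF5 and the EIF1A-related EIF1AD. None passed the TMM test in any Mediator line. With THAL-SNS-032 3 of the 4 were lower (16.1% of all genes), in the CDK9 line 2 (27.0%), and with dBET6 2 were lower and 1 higher (23.6% and 17.6%). EIF1B, a paralog of the start codon gatekeeper EIF1, read 49.5, 48.1 and 52.0 CPM with DMSO and 17.8, 5.79 and 8.5 CPM with dTAG7 in the CDK9 line. The treated values rest on 21, 2 and 5 counts. The changes were -1.93 ± 0.26 (SE; adjusted p = 3.88e-09) there and -0.93 ± 0.23 (SE; adjusted p = 0.000963) with THAL-SNS-032, and on the spike-in scale -4.77 ± 0.27 and -3.73 ± 0.24. EIF1AD, a gene related to EIF1A, read 11.8, 17.7 and 12.9 CPM with DMSO and 5.77, 3.45 and 9.98 CPM with THAL-SNS-032, a change of -1.17 ± 0.46 (SE; adjusted p = 0.0458). That call was lost without DMSO libraries B or C or treated libraries A or B (adjusted p from 0.0509 to 0.288), and also with median-of-ratios factors. EIF5, the GTPase-activating partner of eIF2, was lower with all 3: -0.87 ± 0.13 in the CDK9 line, -0.56 ± 0.11 with THAL-SNS-032 and -0.51 ± 0.12 with dBET6.

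Of the eIF2 and tRNA delivery genes (4), EIF2S2, the beta subunit, was lower on the TMM scale in the MED14 line, the CDK9 line, with THAL-SNS-032 and with dBET6, at -0.30 ± 0.074, -0.54 ± 0.083, -0.30 ± 0.08 and -0.63 ± 0.086. Of the 5 eIF2B subunits 3 were lower in the MED14 line (16.5% of all genes), 1 each in the MED10 and MED12 lines (9.87% and 5.61%), and 2 each in the CDK9 line and with dBET6 (27.0% and 23.6%). EIF2B3, the gamma subunit, read 65.7, 48.7 and 52.1 CPM with DMSO and 36.9, 33.5 and 45.9 CPM with dTAG7 in the MED10 line. Its change was -0.49 ± 0.14 (SE; adjusted p = 0.00981), and the call was lost without DMSO library A or treated libraries A or B (adjusted p from 0.0535 to 0.11). The 3 members not called in any of the 12 comparisons on the TMM scale were EIF2B1, EIF2D and EIF4G2. EIF2B1 encodes the alpha subunit of eIF2B, EIF2D can deliver tRNA without eIF2, and EIF4G2 is a scaffold without the eIF4E-binding site. EIF2D read 13.1 CPM in dTAG7 library A of the MED6 line against 74.98 and 79.5 CPM in B and C.

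EIF2AK3 encodes PERK, the eIF2 alpha kinase of the endoplasmic reticulum. In the CDK9 line it read 38.7, 47.0 and 39.2 CPM with DMSO and 8.49, 11.6 and 15.3 CPM with dTAG7. In wild-type cells it read 30.2, 31.9 and 37.7 CPM with DMSO, 15.9, 23.0 and 14.3 CPM with THAL-SNS-032 and 4.61, 5.18 and 11.6 CPM with dBET6. The dBET6 values rest on 2, 3 and 6 counts. The TMM changes were -1.93 ± 0.28 (SE; adjusted p = 1.73e-08), -0.88 ± 0.24 (SE; adjusted p = 0.003) and -2.21 ± 0.35 (SE; adjusted p = 2.61e-07). On the spike-in scale they were -4.73 ± 0.28, -3.69 ± 0.25 and -5.70 ± 0.31. EIF2AK3 was higher on the TMM scale in the MED14 line, at 0.40 ± 0.15 (SE; adjusted p = 0.0397), and stood at -0.29 ± 0.18 (SE; adjusted p = 0.163) on the spike-in scale, which was not called. That call was lost without DMSO library A or treated libraries B or C (adjusted p from 0.0763 to 0.265). EIF2AK2, which encodes PKR, the kinase activated by double-stranded RNA, was higher on the TMM scale in the CDK9 line (0.56 ± 0.11), with THAL-SNS-032 (0.29 ± 0.1) and with dBET6 (0.37 ± 0.11), and lower on the spike-in scale in each.

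The eIF3 genes were lower in the Mediator lines where they were called, and higher on the TMM scale with 1 exception where CDK9 or BET proteins were targeted. Of 12 subunits 4 were lower in each of the MED10, MED12 and MED14 lines, 2 each in the MED28 and MED6 lines and 1 in the MED31 line (9.87%, 5.61%, 16.5%, 4.33%, 3.55% and 3.04% of all genes, in the same order). Higher were 9 in the CDK9 line, 7 with THAL-SNS-032 and 6 with dBET6 (20.6%, 13.5% and 17.6% of all genes), and with dBET6 EIF3A was lower. All of these TMM rises were falls on the spike-in scale apart from EIF3L in the CDK9 line, which was not called there.

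EIF3B, which encodes a core subunit, read 331, 326 and 298 CPM with DMSO and 213, 208 and 213 CPM with dTAG7 in the MED14 line, a change of -0.59 ± 0.15 (SE; adjusted p = 0.00146). In the MED12 line it read 258, 344 and 233 CPM with DMSO and 169.8, 185 and 239 CPM with dTAG7, a change of -0.48 ± 0.14 (SE; adjusted p = 0.0251). DMSO library B is the highest of the MED12 values, and without it the change was -0.30 (adjusted p = 0.303). The MED12 call was lost without DMSO library B or treated libraries A or B (adjusted p from 0.0716 to 0.303). In the MED10 line the change was -0.50 ± 0.14 (SE; adjusted p = 0.0096), a call that was lost without DMSO library A (adjusted p = 0.0566). EIF3A, which encodes the largest subunit, changed by -0.44 ± 0.088 (SE; adjusted p = 8e-05) in the MED10 line and -0.44 ± 0.088 (SE; adjusted p = 6.36e-05) in the MED14 line. In the MED12 line it changed by -0.27 ± 0.087 (SE; adjusted p = 0.0355), and without DMSO library B by -0.17 (adjusted p = 0.351), while in the MED31 line it changed by -0.33 ± 0.087 (SE; adjusted p = 0.0148). The MED12 call was lost without DMSO library B or treated library A (adjusted p from 0.0687 to 0.351), and the MED31 call was lost without DMSO library B or treated libraries B or C (adjusted p from 0.0706 to 0.0903). With dBET6 EIF3A changed by -0.28 ± 0.093 (SE; adjusted p = 0.012), a call that was lost without treated library C or DMSO library A (adjusted p from 0.0904 to 0.0983) and with median-of-ratios factors (-0.12, adjusted p = 0.296).

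EIF3D, a cap-binding eIF3 subunit, read 515, 669.9 and 545 CPM with DMSO and 422, 487 and 414 CPM with dTAG7 in the MED12 line. Its change was -0.39 ± 0.095 (SE; adjusted p = 0.00363), and without DMSO library B -0.27 (adjusted p = 0.118). EIF3G, an RNA-binding subunit, changed by -0.43 ± 0.12 (SE; adjusted p = 0.0178) in the MED28 line, a call that was lost without DMSO library B or treated libraries A or C (adjusted p from 0.0652 to 0.147). EIF3M changed by -0.43 ± 0.12 (SE; adjusted p = 0.0244) in the MED6 line, a call that was lost without DMSO libraries A, B or C or treated library A (adjusted p from 0.0665 to 0.343). EIF3H, which encodes an eIF3 subunit with an MPN fold, read 408, 392 and 357 CPM with DMSO and 794, 582 and 729 CPM with dTAG7 in the CDK9 line. The arms do not overlap, and the TMM change was 0.89 ± 0.092 (SE; adjusted p = 3.02e-13) against -1.93 ± 0.13 (SE; adjusted p = 1.21e-22) on the spike-in scale. EIF3F, another MPN subunit, was higher on the TMM scale with THAL-SNS-032, at 0.73 ± 0.21 (SE; adjusted p = 0.00431), a call that was lost without DMSO library A (adjusted p = 0.0542), and lower on the spike-in scale, at -2.06. EIF3L, with a mean under 5 CPM over all libraries, was at 2.25 in the CDK9 line on the TMM scale.

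EIF4A1 (chr17:7572706-7579005, plus strand) encodes the main eIF4A helicase, which unwinds the leader of the mRNA. Its 3′ end is overlapped on the same strand by the readthrough gene SENP3-EIF4A1, and how the authors' counting split such reads is not given in the sources used here. In the MED14 line it read 29.7, 20.6 and 23.3 CPM with DMSO and 9.01, 11.2 and 9.97 CPM with dTAG7. In the MED28 line it read 24.4, 26.4 and 25.4 CPM with DMSO and 11.2, 14.4 and 15.3 CPM with dTAG7. The arms do not overlap in either line. The TMM changes were -1.31 ± 0.24 (SE; adjusted p = 1.02e-05) and -0.89 ± 0.2 (SE; adjusted p = 0.00144), and the spike-in changes -1.99 ± 0.24 and -0.93 ± 0.21. In the MED10 line the TMM change was -0.52 ± 0.22 (SE; adjusted p = 0.104), which was not called, and the spike-in change -0.72 ± 0.23 (SE; adjusted p = 0.0164), a call that was lost without treated libraries A or C (adjusted p from 0.0762 to 0.0847). In wild-type cells EIF4A1 read 27.1, 27.3 and 20.2 CPM with DMSO, 8.65, 13.8 and 11.4 CPM with THAL-SNS-032 and 9.23, 6.91 and 7.74 CPM with dBET6, the last from 4, 4 and 4 counts. It was lower on the TMM scale with both, at -1.11 ± 0.31 and -1.65 ± 0.4, and in the CDK9 line, at -1.75 ± 0.38 from 7, 1 and 6 treated counts.
EIF4A2, the second eIF4A helicase, changed on the TMM scale by -0.48 ± 0.11 (SE; adjusted p = 0.00339) in the MED6 line, a call that was lost without treated library A (-0.30, adjusted p = 0.123). In the MED10 line it changed by -0.41 ± 0.11 (SE; adjusted p = 0.00593), a call that was lost without treated library C (adjusted p = 0.0661). It was lower in the CDK9 line (-1.06 ± 0.17) and with THAL-SNS-032 (-0.61 ± 0.15). EIF4A3, a related helicase of the exon junction complex, was lower on the TMM scale in the CDK9 line alone among the 12 comparisons, at -0.97 ± 0.31 (SE; adjusted p = 0.00811).

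EIF4E (chr4:98871684-98930637, minus strand) encodes the protein that binds the mRNA cap. In the MED14 line it read 94.1, 102 and 93.4 CPM with DMSO and 55.1, 54.0 and 59.4 CPM with dTAG7, and the arms do not overlap. The TMM change was -0.77 ± 0.11 (SE; adjusted p = 7.72e-08) and the spike-in change -1.46 ± 0.14 (SE; adjusted p = 3.06e-14). In the MED10 and MED6 lines the TMM changes were -0.31 ± 0.11 (SE; adjusted p = 0.0353) and -0.39 ± 0.11 (SE; adjusted p = 0.0155). The MED10 call was lost without DMSO libraries A, B or C or treated libraries A or C (adjusted p from 0.0503 to 0.228), and the MED6 call was lost without DMSO library A or treated library A (adjusted p from 0.0987 to 0.119). In the MED26 line EIF4E was called on the spike-in scale alone, at -0.44 ± 0.13 (SE; adjusted p = 0.0436), a call that was lost without DMSO libraries A, B or C or treated libraries A, B or C (adjusted p from 0.0548 to 0.292). It was lower on the TMM scale in the CDK9 line (-1.09 ± 0.15) and with THAL-SNS-032 (-0.60 ± 0.14).
The promoters of EIF4A1 and EIF4E are shown because these members had the largest TMM falls in the MED14 line. They are from RefSeq GRCh38.p14, 150 bases before the RefSeq start on the gene's strand, with capitals for GC boxes and CCAAT in EIF4A1 and for an E-box and CCAAT in EIF4E. By the GENCODE 29 spans the EIF4E stretch lies within the gene and the EIF4A1 stretch runs past the start.
EIF4A1, chr17:7572675-7572824, plus strand: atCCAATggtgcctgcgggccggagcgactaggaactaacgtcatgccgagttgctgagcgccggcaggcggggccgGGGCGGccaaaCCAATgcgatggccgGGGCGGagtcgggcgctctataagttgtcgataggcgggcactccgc
EIF4E, chr4:98929134-98929283, minus strand: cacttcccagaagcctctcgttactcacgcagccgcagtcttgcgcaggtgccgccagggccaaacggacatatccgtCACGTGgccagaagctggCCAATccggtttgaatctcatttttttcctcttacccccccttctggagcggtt

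EIF4G1, the main scaffold of the cap complex, changed on the TMM scale by -0.31 ± 0.076 (SE; adjusted p = 0.00183) in the MED10 line and -0.31 ± 0.077 (SE; adjusted p = 0.0011) in the MED14 line. It was higher on the TMM scale in the CDK9 line, at 0.24 ± 0.08 (SE; adjusted p = 0.0105), a call that was lost without DMSO library C or treated libraries A or C (adjusted p from 0.051 to 0.0654), and lower on the spike-in scale, at -2.57. EIF4G3, a scaffold paralog, and EIF4B and EIF4H, cofactors of the helicase, were higher on the TMM scale in the CDK9 line, with THAL-SNS-032 and with dBET6, and lower on the spike-in scale in each. EIF4H read 9.36, 20.4 and 14.7 CPM with DMSO and 39.2, 32.8 and 23.2 CPM with dBET6, with no overlap. Its TMM change was 1.11 ± 0.3 (SE; adjusted p = 0.00179) and its spike-in change -2.46 ± 0.29 (SE; adjusted p = 5.94e-12). With THAL-SNS-032 EIF4H changed by 0.81 ± 0.28 (SE; adjusted p = 0.0211) on the TMM scale, a call that was lost without DMSO library A or treated libraries B or C (adjusted p from 0.056 to 0.183).

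Among the inhibitors and partners of eIF4E, EIF4EBP2 rose relative to other transcripts in the MED14 line. It read 121, 126 and 119 CPM with DMSO and 191, 169.8 and 168 CPM with dTAG7 there, with no overlap of the arms, and its TMM change was 0.54 ± 0.11 (SE; adjusted p = 5.95e-05). On the spike-in scale it stood at -0.15 ± 0.15 (SE; adjusted p = 0.378) in that line, which was not called. It was also higher on the TMM scale in the CDK9 line (0.78 ± 0.12) and with dBET6 (0.48 ± 0.13), and lower on the spike-in scale in both (-2.05 and -3.08). EIF4EBP1, the best-known target of mTOR among the 4E-binding proteins, was called on the TMM scale in the CDK9 line alone, at 0.62 ± 0.17 (SE; adjusted p = 0.00226), a call that was lost without treated library C (adjusted p = 0.07). EIF4ENIF1, which carries eIF4E into the nucleus and to P-bodies, was lower on the TMM scale in the CDK9 line (-1.44 ± 0.23), with THAL-SNS-032 (-0.68 ± 0.19) and with dBET6 (-1.37 ± 0.25). The THAL-SNS-032 call was lost without treated library A (adjusted p = 0.0811). EIF4EBP3 had a mean under 5 CPM over all libraries, shares its 3′ end with the readthrough gene ANKHD1-EIF4EBP3, and was counted 0 times with dBET6 against 39 times in its DMSO wells, which puts it at least 26-fold lower per spike-in against a floor of 3 counts over the group, or 20.2-fold at the lower limit of the exact counting interval.

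Late-acting factors were split. EIF5A encodes the hypusinated factor that keeps ribosomes moving over difficult stretches, and it was higher on the TMM scale and lower on the spike-in scale where CDK9 or BET proteins were targeted. In the CDK9 line it read 86.0, 93.1 and 75.9 CPM with DMSO and 234, 165 and 211 CPM with dTAG7 on the TMM scale. In wild-type cells it read 86.1, 80.4 and 91.3 CPM with DMSO, 159, 152 and 163 CPM with THAL-SNS-032 and 178, 186 and 189.6 CPM with dBET6. The treated libraries lie above all DMSO libraries in all of these. The TMM changes were 1.31 ± 0.15 (SE; adjusted p = 9.82e-11), 0.87 ± 0.15 (SE; adjusted p = 7.76e-06) and 1.10 ± 0.16 (SE; adjusted p = 5.18e-08). The spike-in changes were -1.52 ± 0.19, -1.91 ± 0.19 and -2.46 ± 0.2, which leave 34.9%, 26.6% and 18.2% of the DMSO level. EIF5A changed by 0.35 ± 0.14 (SE; adjusted p = 0.0462) on the TMM scale in the MED14 line, a call that was lost without DMSO libraries A, B or C or treated libraries A or C (adjusted p from 0.0557 to 0.265), and stood at -0.34 ± 0.18 (SE; adjusted p = 0.0911) on the spike-in scale.

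EIF5A2, its paralog, was higher on the TMM scale with dBET6, at 1.29 ± 0.39 (SE; adjusted p = 0.00503), a call that was lost without treated library A (adjusted p = 0.11), and lower on the spike-in scale, at -2.27. EIF6, which keeps the large subunit from joining too early and is needed to make it, read 199.9, 196 and 206 CPM with DMSO and 157, 148 and 156 CPM with dTAG7 in the MED14 line, a TMM change of -0.38 ± 0.11 (SE; adjusted p = 0.00527). In the MED12 line it changed by -0.41 ± 0.11 (SE; adjusted p = 0.00637), and without DMSO library B by -0.22 (adjusted p = 0.301). That call was lost without DMSO library B (adjusted p = 0.301). The 3′ end of EIF6 is overlapped by another annotated gene on the same strand.

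The size of the dTAG7 effect on the TMM scale was then compared among the 8 Mediator lines in 1 test per gene. It differed for 6 of 47 members, which is near the share of 12.5% over all genes. These were EIF4A1 (adjusted p = 0.00208), EIF5B (0.00849), EIF3J (0.0101), EIF3D (0.0155), EIF4E (0.0196) and EIF4A2 (0.0356). EIF4A1, EIF5B and EIF3J were called in 48 of 48 fits that left out 1 library, EIF3D in 47, EIF4E in 45 and EIF4A2 in 38. The count of members rose to 10 without MED12 DMSO library A or MED6 dTAG7 library B or C. On the spike-in scale 31 members differed (45.6% of all genes). MED12 belongs to the kinase module of Mediator, and MED26 is known from Mediator without that module. The pair was chosen from earlier values of these data, as a line with and a line without the fall of the ribosome assembly list. The MED12 and MED26 lines were compared directly: 3 members fell more in the MED12 line and 0 more in the MED26 line (2.54% and 1.51% of all genes). Among them EIF5B and EIF3J are pattern members, chosen by falls that include the MED12 line, so their differences are partly built in. The differences were -0.49 ± 0.13 (SE; adjusted p = 0.0187) for EIF3D, -0.42 ± 0.11 (SE; adjusted p = 0.0102) for EIF3J and -0.37 ± 0.096 (SE; adjusted p = 0.0119) for EIF5B. EIF3D was not called without MED12 DMSO library B or MED26 dTAG7 library C, while EIF3J and EIF5B were called in 12 of 12 fits that left out 1 library. On the spike-in scale 0 members differed by edgeR, with 4 at an unadjusted p under 0.05 (2.43% of all genes were called).

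Where CDK9 was targeted, dTAG7 in the CDK9 line and THAL-SNS-032 in wild-type cells were each compared with their own DMSO wells. On the TMM scale 11 members were lower and 20 higher in the CDK9 line (27.0% and 20.6% of all genes), and 9 were lower and 12 higher with THAL-SNS-032 (16.1% and 13.5%). Lower in both were 8 members (13.7% of all genes were lower in both), which is 72.7% of those lower in the CDK9 line and 88.9% of those lower with THAL-SNS-032, against 50.8% and 85.3% for all genes. These were EIF1B, EIF2AK3, EIF2S2, EIF4A1, EIF4A2, EIF4E, EIF4ENIF1 and EIF5. Higher in both were 12 (10.7% of all genes), 60.0% and 100% of those higher in each, against 51.8% and 79.0% for all genes. These were EIF2AK2, EIF3D, EIF3E, EIF3F, EIF3G, EIF3H, EIF3I, EIF3J, EIF4B, EIF4G3, EIF4H and EIF5A. The EIF3D call with THAL-SNS-032 was lost without DMSO libraries B or C or treated libraries B or C (adjusted p from 0.0718 to 0.15). There were 0 members called in opposite directions. The THAL-SNS-032 count was 14 in all without THAL-SNS-032 library B. A direct test of the difference between the effects called 0 members on the spike-in scale by edgeR, with 10 at an unadjusted p under 0.05 (2.76% of all genes were called), and 2 on the TMM scale, EIF3H (0.43 ± 0.13 (SE; adjusted p = 0.033)) and EIF4G1 (0.38 ± 0.11 (SE; adjusted p = 0.0324)), both higher in the CDK9 line (5.61% of all genes were called in either direction).

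**Figure D4:**
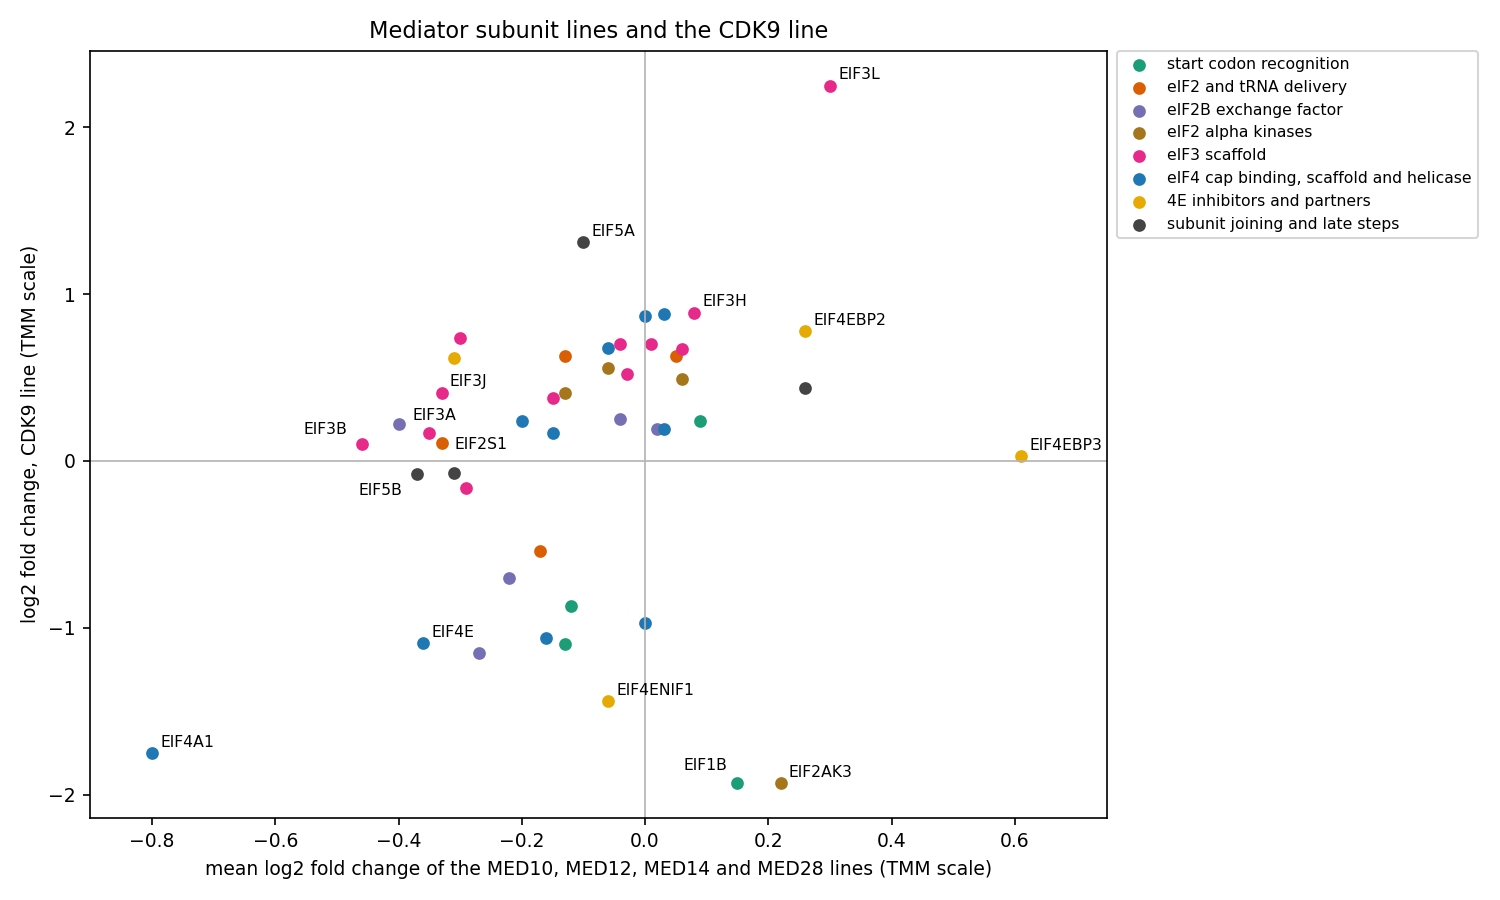
TMM log2 fold change of each of the 47 members, as the mean over the MED10, MED12, MED14 and MED28 lines (horizontal axis) against the CDK9 line (vertical axis), 1 point per gene, coloured by role. EIF4A1 lies lowest on the horizontal axis at -0.80 and at -1.75 on the vertical one, while EIF5B, EIF3J and EIF2S1 lie between -0.37 and -0.33 on the horizontal axis, and EIF5A stands at 1.31 on the vertical one, a value that is -1.52 on the spike-in scale.

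With dBET6 14 members were lower and 14 higher on the TMM scale (23.6% and 17.6% of all genes). Lower members included EIF1B, EIF3A, EIF4A2, EIF4E, EIF4G1 and EIF5B. The calls of EIF3A, EIF4A2, EIF4G1 and EIF5B were lost with median-of-ratios factors, with DESeq2 and with the libraries of the comparison fitted alone. Those of EIF1B and EIF4E were lost without dBET6 library B (adjusted p of 0.0728 and 0.0817), and that of EIF4E also with DESeq2. Against THAL-SNS-032, with which it shares DMSO wells but at another dose, dBET6 left 39 members lower on the spike-in scale (53.0% of all genes were lower). On the TMM scale 2 members were lower with dBET6 (2.7% of all genes), EIF2S2 (-0.32 ± 0.091 (SE; adjusted p = 0.024)) and EIF3A (-0.34 ± 0.096 (SE; adjusted p = 0.0218)). These TMM calls, and those of EIF3H and EIF4G1 for the CDK9 line against THAL-SNS-032, were not checked by leaving out libraries.

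Other genes of translation were counted on the TMM scale beside the members. Shares of all genes, lower and higher, were 16.5% and 13.0% in the MED14 line, 9.87% and 7.94% in the MED10 line, 5.61% and 2.96% in the MED12 line and 4.33% and 2.0% in the MED28 line. Of 28 further initiation cofactors 4 were lower and 4 higher in the MED14 line, 5 and 3 in the MED10 line, 4 and 1 in the MED12 line and 2 and 1 in the MED28 line. Of 17 elongation and termination factors 6, 3, 4 and 1 were lower in those lines and 0 higher. Of 22 cytosolic tRNA synthetases 12, 7, 6 and 4 were lower and 0 higher. Of 17 targets of the integrated stress response, the programme switched on when eIF2 is phosphorylated, 7, 5, 3 and 1 were lower and 3, 1, 0 and 0 higher. In the CDK9 line (27.0% and 20.6% of all genes) the lower and higher counts were 4 and 8 for the cofactors, 3 and 5 for elongation and termination, 4 and 7 for the synthetases and 7 and 0 for the stress targets. With THAL-SNS-032 (16.1% and 13.5%) they were 5 and 6, 5 and 3, 3 and 3, and 6 and 3, and with dBET6 (23.6% and 17.6%) 6 and 6, 6 and 4, 4 and 3, and 6 and 2.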

How the data were processed

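Quant-seq libraries of KBM7 cells were 3 wells in each of 22 groups, mapped to line and treatment by their labels. The authors deposited 1 table of counts, with a row for each gene or spike-in, and 1 table of loess-normalized signal values, per the file headers, with program and settings of the loess step not given in the sources used here. Per the submitters' processing notes, the build was hg38 and the tools were bedtools 2.26.0, HTSeq 0.6.0 and STAR 2.5.2b. The strand setting of the counting is not given there, and 21 members have a gene on the other strand over the last 500 bases. GENCODE release 29 names matched 13297 of 13331 genes.

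Spike-in totals (ERCC and SIRV) or TMM factors scaled the counts, and the smallest spike-in total was 10950. CPM on the spike-in scale were set so that DMSO libraries read about as ordinary CPM. After filterByExpr 12515 genes (spike-in) and 12973 genes (TMM) were tested with edgeR 4.0.16 in R 4.3.3, with 22 group means over 66 libraries and 44 residual degrees of freedom, and with Benjamini-Hochberg adjustment over all tested genes. Standard errors were taken from each fold change and its F statistic, as the ratio of the change to the root of F. Scripts were tested on simulated data, and tables and plots were made in Python 3.11.15 with pandas 2.3.3 and matplotlib 3.10.9.

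The members and the gene lists were chosen with earlier results of these data known. Named were 15 genes looked at always, the 3 largest called falls and rises of each comparison and scale with a mean of at least 5 CPM, the members with the ribosome assembly pattern, and the 5 genes most like EIF5B, though the text names part of these. EIF3L and EIF4EBP3, under 5 CPM, and some genes of the lists of members called in several comparisons were named after their values were seen. Alternatives were the other scaling, median-of-ratios factors, a block for the replicate letter, other filters, fits to the 6 libraries of each comparison only, DESeq2 1.42.0, and limma 3.58.1 on log2 of the loess-normalized signal plus 1, besides leaving out each library. For the further contrasts between effects, leaving out libraries was added after seeing the data. It was done on the TMM scale for the contrasts between Mediator lines and on the spike-in scale for those with THAL-SNS-032. Same-letter wells did not deviate together: 2 of 36 correlations were over 0.1, from -0.462 to 0.169, so the letter was not used as a block in the main tests.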

Additional observations from a re-analysis of the deposited data

Results flagged for a closer look

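The dTAG7 effect differed among the 8 Mediator lines, by an F test on the TMM scale in edgeR, for 6 of 47 members. The share over all genes was 12.5%, so the count of members is near that of genes in general. The adjusted p was 0.00208 for EIF4A1, 0.00849 for EIF5B, 0.0101 for EIF3J, 0.0155 for EIF3D, 0.0196 for EIF4E and 0.0356 for EIF4A2. EIF4A1 ran from -1.31 in the MED14 line to 0.15 in the MED1 line, and EIF5B from -0.43 in the MED12 line to -0.06 in the MED26 line. The 3′ end of EIF4A1 is overlapped on the same strand by the readthrough gene SENP3-EIF4A1.

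The effects in the MED12 and MED26 lines differed for 3 members, with adjusted p of 0.0187 for EIF3D, 0.0102 for EIF3J and 0.0119 for EIF5B. All 3 were lower in the MED12 line, at -0.39, -0.39 and -0.43, against 0.10, 0.03 and -0.06 in the MED26 line. Over all genes the difference was lower for 2.54% and higher for 1.51%. The 2 lines were chosen from earlier values of the ribosome assembly list. EIF5B and EIF3J are pattern members, chosen by falls that include the MED12 line, so their differences are partly built in. EIF3D was not called without MED12 DMSO library B or MED26 dTAG7 library C. On the spike-in scale edgeR called 0 members for this difference.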

How the results depend on the processing

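TMM in place of spike-in scaling changed the counts of members called to 4 in the MED6 line, 11 in the MED10 line, 8 in the MED12 line, 19 in the MED14 line, 0 in the MED26 line, 28 with dBET6 and 21 with THAL-SNS-032. It turned EIF5A from lower to higher, at 1.31 in the CDK9 line, 0.87 with THAL-SNS-032 and 1.10 with dBET6, and gave 2 members for the CDK9 line against THAL-SNS-032 and 2 for dBET6 against THAL-SNS-032. Spike-in in place of TMM scaling gave 31 members that differed among Mediator lines, 0 between the MED12 and MED26 lines and 2 with the ribosome assembly pattern. With the 6 libraries of a comparison fitted alone, spike-in counts were 0 in the MED6, 30 in the MED10, 0 in the MED12, 6 in the MED26 and 11 in the MED28 line. TMM counts were then 0 in the MED6, 19 in the MED10, 1 in the MED12 and 11 in the MED28 line, and 1 member had the pattern. Limma on the loess-normalized values gave 11 members in the MED6 line and 1 in the MED26 line. The causes were not tested.

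The replicate letter as a block kept the 3 pattern members and moved no count of calls by over 1.5 times, with 10 members in the MED10 line, 7 in the MED12 line and 19 in the MED14 line on the TMM scale. Same-letter wells share only a letter.

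Leaving out 1 library at a time, spike-in counts ran from 9 to 19 in the MED6 line, 1 to 3 in the MED12 line, 0 to 1 in the MED26 line, 2 to 5 in the MED28 line and 0 to 2 in the MED31 line. TMM counts ran from 1 to 5 in the MED6 line, 7 to 9 in the MED10 line, 3 to 9 in the MED12 line, 12 to 17 in the MED14 line, 3 to 4 in the MED28 line and 0 to 2 in the MED31 line. Members with the pattern ran from 1 to 4, and members that differed among Mediator lines from 4 to 10. Of 120 called values of named members, 44 lost the call when some library was left out, 51 under any alternative, and 3 reversed.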

Other observations

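EIF3J-DT, a transcript read from the other strand beside EIF3J and chosen after its values were seen, did not pass the TMM test in the MED10, MED12, MED14 or MED28 line, where EIF3J was lower, nor in the MED6 line. Its TMM change was 0.11 ± 0.21 (SE) in the MED10 line, -0.24 ± 0.19 in the MED12 line, 0.10 ± 0.22 in the MED14 line and -0.13 ± 0.2 in the MED28 line. In the CDK9 line, where EIF3J was higher on the TMM scale, EIF3J-DT was lower, at -1.74 ± 0.43 (adjusted p = 0.000562). With THAL-SNS-032 and dBET6 it was lower at -0.88 ± 0.32 (adjusted p = 0.0325) and -1.31 ± 0.41 (adjusted p = 0.00666). The levels were 10.8, 25.3 and 14.5 CPM with DMSO in the CDK9 line against 5.94, 5.80 and 3.40 CPM with dTAG7, so that the arms do not overlap. The dTAG7 levels rest on few reads, at 0.757, 0.828 and 0.521 CPM on the spike-in scale. By edgeR on the spike-in scale EIF3J-DT was lower in the MED14 line, at -0.58 ± 0.22 (adjusted p = 0.0167). It was not called there in the MED10, MED12, MED28 or MED6 line. In the CDK9 line, with THAL-SNS-032 and with dBET6 it was lower on that scale, as was EIF3J, at -4.52, -3.66 and -4.81. Calls of EIF3J-DT were not checked by leaving out libraries.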
